A study of Mus musculus with 54 samples.

Results

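The MPP3 gate is a sorted population of mouse multipotent progenitors, and its cells were taken here as every steady state cell that the deposited annotation assigns to the phenotype MPP3. There were 76 such cells among 1270 steady state cells, 2301 annotated cells and 2879 cells in the count table. All 76 were used, 52 from library L39 and 24 from library L52. The study profiled single haematopoietic cells from steady state mice and from transplanted recipients with a modified Smart-seq2 protocol enriched for the 3' ends of transcripts. The comparison gates were the other steady state gates of the numbered MPP series, MPP1 (72 cells in L37 and L51), MPP2 (72 cells in L38, L51 and L52) and MPP4 (78 cells in L40, L52 and L53). The mice of all 4 gates were C57BL/6, 8 to 10 weeks old, with no treatment or allele given. Libraries L37 to L40 are labelled bone marrow and held 1 gate each, and L51 to L53 are labelled bone marrow and spleen and held several populations each. Which antibodies set the gates, and how many mice stood behind a library, is not given in the sources used here. The unit of each test was therefore 1 gate in 1 library, not the mouse. The edgeR p-values rest on the spread between libraries of the same gate. The permutation p-values come from regrouping these units over all 4 gates, so they also take in differences among MPP1, MPP2 and MPP4. Units that came from the same library (L51 or L52) were treated as separate in both tests.

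Multipotent progenitors lie between haematopoietic stem cells and the lineage-committed progenitors of the bone marrow. In mouse they are split by surface markers into subsets that differ in the lineages they favour, and MPP3 is known as the subset that leans towards granulocytes and monocytes. Cells on that path switch on the transcription factors C/EBPα, PU.1 and IRF8 and begin to fill azurophil granules with proteins such as myeloperoxidase, neutrophil elastase, cathepsin G and proteinase 3, which are made on the rough endoplasmic reticulum. The question put to the data was how far the MPP3 gate carried such a myeloid programme relative to MPP1, MPP2 and MPP4.

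Counts were added over the cells of 1 gate in 1 library, which gave 10 sums: 2 for MPP3, 2 for MPP1, 3 for MPP2 and 3 for MPP4. Between 85312 and 1198856 counts were assigned to an MPP3 cell (median 476042.5), with 4522 to 9407 genes detected (median 7326). The median count per cell was 471740 and 477890 in the MPP3 sums, against 197521 to 849565 in the 8 other sums. Levels of sums are given as CPM (counts relative to the total of the sum) scaled by trimmed mean factors, and levels of single cells as plain CPM. Ddx3y, a Y-linked gene, was at 62.3 CPM in the MPP3 sum of L39 and at 44.6 to 85.4 CPM in the other sums of L37 to L40, and at 0 in the sums of L51 to L53, where Xist reached 149.7 to 490.0 CPM. In L37 to L40 the median cell had 0 CPM of Xist. The highest cell there had 576 CPM in MPP1, 163 CPM in MPP2, 3.25 CPM in MPP4 and 0 in MPP3. The sets of libraries L37 to L40 and L51 to L53 each held 1 of the MPP3 sums.

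In L38, L40, L52 and L53 the cells of 1 library shared a low level of genes abundant in some of their library-mates. This touches the values below. The 14 MPP2 cells of L52, the library that also held MPP3 cells, had 316 to 1095 CPM of Elane, and the 16 MPP4 cells of L52 had 258 to 816 CPM. Each of the 50 MPP2 cells of L38 also had Elane, at 48.8 to 14949 CPM. The 55 MPP4 cells of L40 each had it as well, at 13.8 to 13863 CPM. All 7 MPP4 cells of L53 and all 51 MPP1 cells of L37 had 0. L51 differed: its MPP1 cells had 5.46 to 67.7 CPM of Elane and its MPP2 cells 22.3 to 128 CPM. The highest annotated steady state cell of L51 had 128 CPM, so the gene was not abundant in any such library-mate there. In the MPP4 cells of L53, whose library-mates were sorted T cells, the T cell gene Cd3d was at 22.5 to 78.7 CPM in each cell. The part of this shared level in the results was not tested, and ratios within sets of libraries are given for the markers and some other genes.

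The defining markers were present in the cells of the gate. Mpo (myeloperoxidase) was at 12268 and 8364 CPM in the MPP3 sums of L39 and L52, against 0 and 66.9 CPM in MPP1, 1206, 433 and 1063 CPM in MPP2, and 1155, 1843 and 152 CPM in MPP4. Elane (neutrophil elastase) was at 13878 and 7982 CPM in MPP3, against 0 and 31.0 CPM in MPP1, 1138, 58.7 and 643 CPM in MPP2, and 356, 516 and 0 CPM in MPP4. For both genes the MPP3 sums lay apart from and above the 8 other sums. Ctsg (cathepsin G) was at 5996 and 5360.1 CPM in MPP3, against 0 to 668 CPM in the other sums. Cebpa, which encodes the transcription factor C/EBPα, was far less abundant, at 71.2 and 48.0 CPM in MPP3, against 0.0471 and 0.534 CPM in MPP1, 12, 0.429 and 8.62 CPM in MPP2, and 16.6, 28.4 and 18.7 CPM in MPP4.

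With both MPP3 sums above the 8 others in CPM, as for 5.49% of all genes tested, all 4 markers passed the test against the mean of the 3 other gates (edgeR's quasi-likelihood test, two-sided, Benjamini-Hochberg adjusted over 12085 genes), in which 1.86% of all genes tested were called at an adjusted p under 0.05. The mean of the gates is here a mean of their fitted log2 levels. A gate near 0, such as MPP1, lowers it more than it would lower a mean of CPM. On this scale the log2 change was 5.03 for Mpo (SE 0.85, adjusted p = 0.00266), 6.30 for Elane (SE 1.18, adjusted p = 0.00602), 5.64 for Ctsg (SE 0.95, adjusted p = 0.00246) and 4.13 for Cebpa (SE 0.86, adjusted p = 0.013). Gate by gate the edgeR calls were fewer: Mpo (adjusted p = 0.0142), Ctsg (0.0174) and Cebpa (0.0214) were called against MPP1, where Elane missed the threshold (0.0501), and none of the 4 was called against MPP2 (adjusted p = 0.155 to 0.309) or MPP4 (0.182 to 0.713). With DESeq2 the adjusted p was 0.058 for Mpo and 0.127 for Elane, and with all steady state MPP gates in the fit it was 0.0541 for Elane and 0.0529 for Cebpa. Cebpa also lost its call without the MPP1 sum of L37 (adjusted p = 0.0643) and without the MPP3 sum of L39 (0.206).

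**Figure D1:**
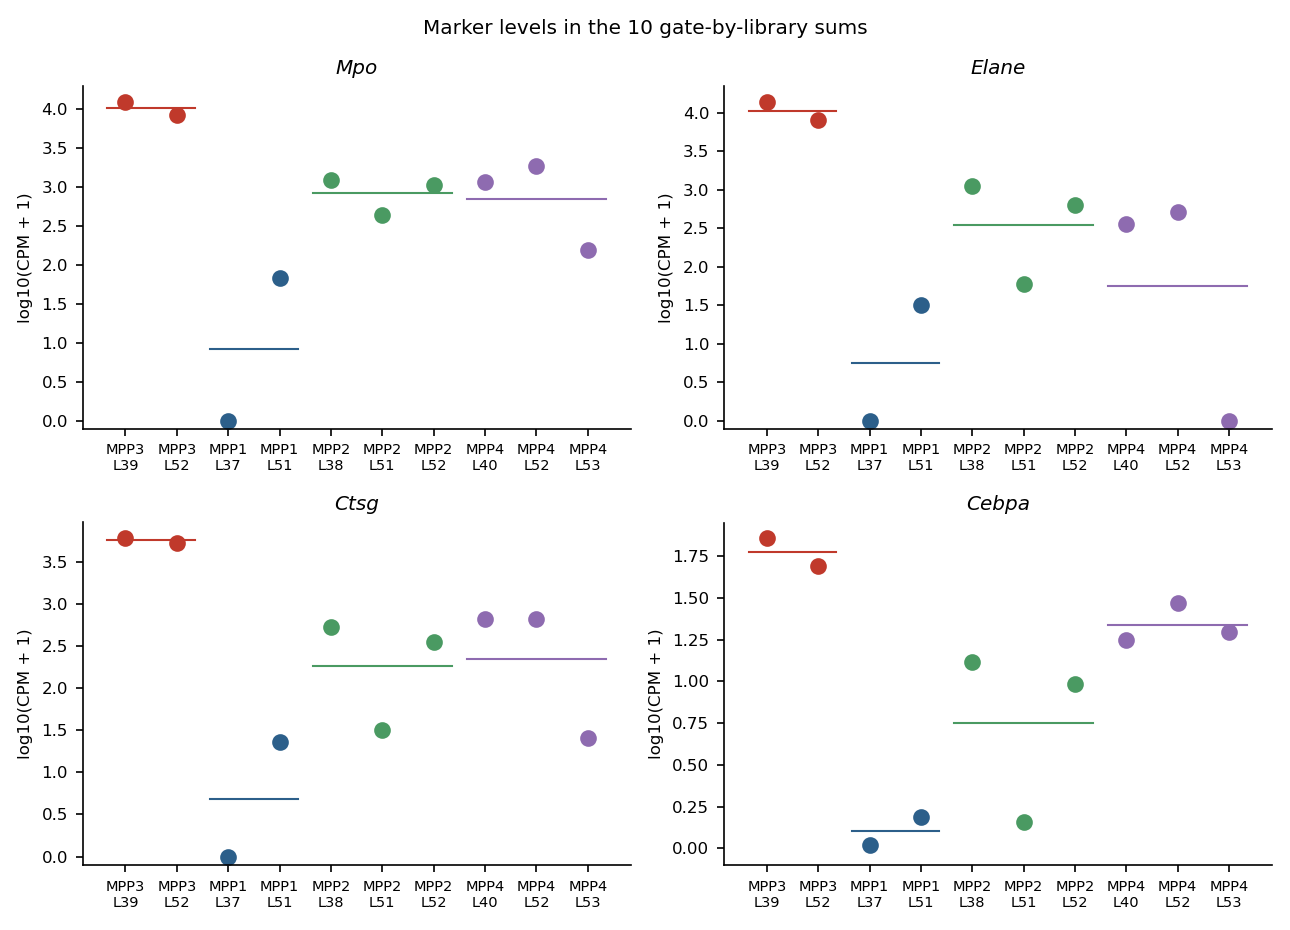
Level of each marker as log10(CPM + 1) in the 10 sums, with gate and library on the x axis; points are sums and lines the mean of a gate on this scale. In each panel both MPP3 points lie above the 8 other points. The MPP1 point of L37 is lowest or, for Elane, shares the bottom with the MPP4 point of L53.

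The direction was the same in both sets of libraries. The MPP3 sum of L39 was 15.6-fold above the mean of L37, L38 and L40 for Mpo, 27.9-fold for Elane, 15-fold for Ctsg and 7.45-fold for Cebpa. Inside L52 the MPP3 cells were 5.76-fold above the mean of the MPP2 and MPP4 sums for Mpo, 13.8-fold for Elane, 10.5-fold for Ctsg and 2.59-fold for Cebpa. The L39 ratio takes in MPP1, and the ratio inside L52 leaves it out. Over the mean of the other sums of L51 to L53, MPP1 included, the MPP3 sum of L52 was 11.76-fold higher for Mpo. The same ratio was 31.94 for Elane, 24.46 for Ctsg and 4.235 for Cebpa. Among other genes the L39 ratio and the ratio inside L52 were 9.88 and 6.10 for Prtn3, 30.7 and 21.9 for Ms4a3, 58.4 and 17.2 for Ly6c2, 22.2 and 26.4 for Fcgr3, 3.70 and 4.30 for Calr, and 7.71 and 1.74 for Irf8. For the same genes in this order, the ratio over the other sums of L51 to L53 was 8.23, 49.3, 37.4, 60.6, 4.29 and 4.23. These ratios rest on 1 MPP3 sum each and carry no test.

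Prtn3 (proteinase 3) separated MPP3 from each other gate. It was at 5814 and 4106 CPM in MPP3, against 308 and 170.0 CPM in MPP1, 519, 369.6 and 294 CPM in MPP2, and 938, 1053 and 607 CPM in MPP4. Its log2 change by edgeR was 4.37 against MPP1 (SE 0.37, adjusted p = 2.22e-06), 3.65 against MPP2 (SE 0.30, adjusted p = 5.39e-06) and 2.52 against MPP4 (SE 0.29, adjusted p = 0.000225), and each of these calls held under all 20 alternative settings. In mouse (GRCm38) Prtn3 lies next to Elane on chromosome 10, at 79874476 to 79883174 against 79886247 to 79888215, both on the plus strand.

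Since these granule genes moved together, the stretch from 250 bases before to 50 bases after the RefSeq start of Elane, Prtn3, Mpo and Ctsg is shown, so that a motif search can be read against the letters. The sequences are from RefSeq (GRCm38.p6), 5′ to 3′ on the gene's strand, and capitals mark GAGGAA on either strand, a core bound by PU.1.
Elane (chr10:79886062-79886361, plus strand): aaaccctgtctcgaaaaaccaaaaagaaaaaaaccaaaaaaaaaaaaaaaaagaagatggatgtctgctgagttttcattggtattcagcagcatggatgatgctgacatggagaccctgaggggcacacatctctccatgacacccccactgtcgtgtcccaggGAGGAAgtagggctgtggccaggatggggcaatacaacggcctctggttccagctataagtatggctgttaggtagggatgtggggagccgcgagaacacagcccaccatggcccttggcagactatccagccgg
Prtn3 (chr10:79879417-79879716, plus strand): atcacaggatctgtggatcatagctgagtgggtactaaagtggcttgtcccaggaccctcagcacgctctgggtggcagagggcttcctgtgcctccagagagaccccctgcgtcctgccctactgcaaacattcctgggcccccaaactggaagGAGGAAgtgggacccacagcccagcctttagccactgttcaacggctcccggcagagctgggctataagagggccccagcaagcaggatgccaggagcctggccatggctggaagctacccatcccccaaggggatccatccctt
Mpo (chr11:87793534-87793833, plus strand): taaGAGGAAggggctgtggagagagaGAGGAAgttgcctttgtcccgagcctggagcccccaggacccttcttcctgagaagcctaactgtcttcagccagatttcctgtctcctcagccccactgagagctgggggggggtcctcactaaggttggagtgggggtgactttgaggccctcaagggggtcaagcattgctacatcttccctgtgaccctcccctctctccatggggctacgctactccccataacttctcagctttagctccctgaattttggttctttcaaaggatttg
Ctsg (chr14:56102525-56102824, minus strand): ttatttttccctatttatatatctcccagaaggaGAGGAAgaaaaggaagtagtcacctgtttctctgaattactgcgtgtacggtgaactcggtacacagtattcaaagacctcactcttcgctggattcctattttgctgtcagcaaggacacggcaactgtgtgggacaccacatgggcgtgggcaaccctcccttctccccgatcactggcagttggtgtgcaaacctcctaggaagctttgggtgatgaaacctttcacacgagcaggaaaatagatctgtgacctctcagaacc
GAGGAA occurred in each of the 4, once in Elane, Prtn3 and Ctsg and 2 times in Mpo, starting 85 bases before the start in Elane and 95 bases before it in Prtn3. Of 27025 promoters of this length, 28.3% hold a match. TTGCNNAA, a core bound by C/EBP factors, searched on both strands, had 0 matches in the 4 sequences and a match in 10.8% of all promoters.

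Across all genes, 157 were higher and 68 lower in MPP3 than in the mean of the other gates, which is 1.3% and 0.563% of those tested by edgeR. These shares are the background for the members called against the mean of the gates in each list below. The count over all genes was 804 with the library as a replicate block in limma voom, and 529 with DESeq2, which split into 191 higher and 338 lower. It fell to 111 without the MPP3 sum of L39 and to 133 without that of L52.

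Granule and early granulocyte-monocyte genes had the most calls of the lists against the mean of the gates. Of 21 tested members, 18 were higher and 0 lower (median log2 change 4.001, and 3.77 as a ratio of mean CPM with absent genes set at 3 counts, against -0.03 and -0.17 over all genes tested). Gate by gate, 13 of 21 were higher than in MPP1 (all genes 0.695%), 8 of 21 than in MPP2 (0.621%) and 4 of 21 than in MPP4 (0.273%); in either direction 1.25%, 1.04% and 0.827% of all genes were called against MPP1, MPP2 and MPP4. The 21 members include the markers Mpo, Elane and Ctsg, which are among the 18 called. The calls and the summed level are thus not separate from the marker results above. The summed level of the 21 members was 52986.5 and 42207 CPM in MPP3, against 2804 to 11413 CPM in the 8 other sums. Leaving out 1 sum at a time left 16 to 18 of them higher, and leaving library L52 out of every gate, an alternative added after the data were seen, left 16.

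Ms4a3, a membrane protein gene used to mark granulocyte-monocyte progenitors in mouse, was at 1847 and 1893 CPM in MPP3, against 3.01 and 11.6 CPM in MPP1, 146, 7.72 and 115 CPM in MPP2, and 31.0, 57.9 and 0 CPM in MPP4. The MPP3 sums were close to each other and above all others, with an edgeR adjusted p of 0.000326 against the mean of the gates and a log2 change of 6.13 (SE 0.84). Gstm1, a glutathione transferase gene, was at 1115 and 1061 CPM in MPP3, against 91.7 to 214 CPM in the other sums, and was called against MPP1, MPP2 and MPP4 each (edgeR adjusted p = 0.000526, 6.71e-05 and 0.000604). Alas1, which encodes the first enzyme of haem synthesis outside the erythroid lineage, was at 649.5 and 593 CPM in MPP3, against 2.14 to 88.6 CPM elsewhere, and was likewise called against each gate (edgeR adjusted p = 0.018, 0.00883 and 0.0381).

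Plac8 had a graded pattern: 4954 and 5546 CPM in MPP3, against 256 and 475 CPM in MPP1, 988, 1086 and 833 CPM in MPP2, and 2640.1, 3274 and 2245 CPM in MPP4. It was called against MPP1 and MPP2, and its log2 change against MPP4 was 0.95 (SE 0.23, edgeR adjusted p = 0.0599). The 3 members of the list that were not called included Lyz2, the lysozyme gene of mature myeloid cells, at 148 and 324 CPM in MPP3, against 72.5 to 386 CPM in the other sums, which overlapped, and Ctsc, the protease gene whose product activates granule proteases, at 79.7 and 113 CPM, against 6.43 to 69.1 CPM. Serpinb1a, an inhibitor of granule proteases, was called with an edgeR adjusted p of 0.0496 and lost the call under several settings, such as without the MPP3 sum of L39 (0.2925).

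**Figure D2:**
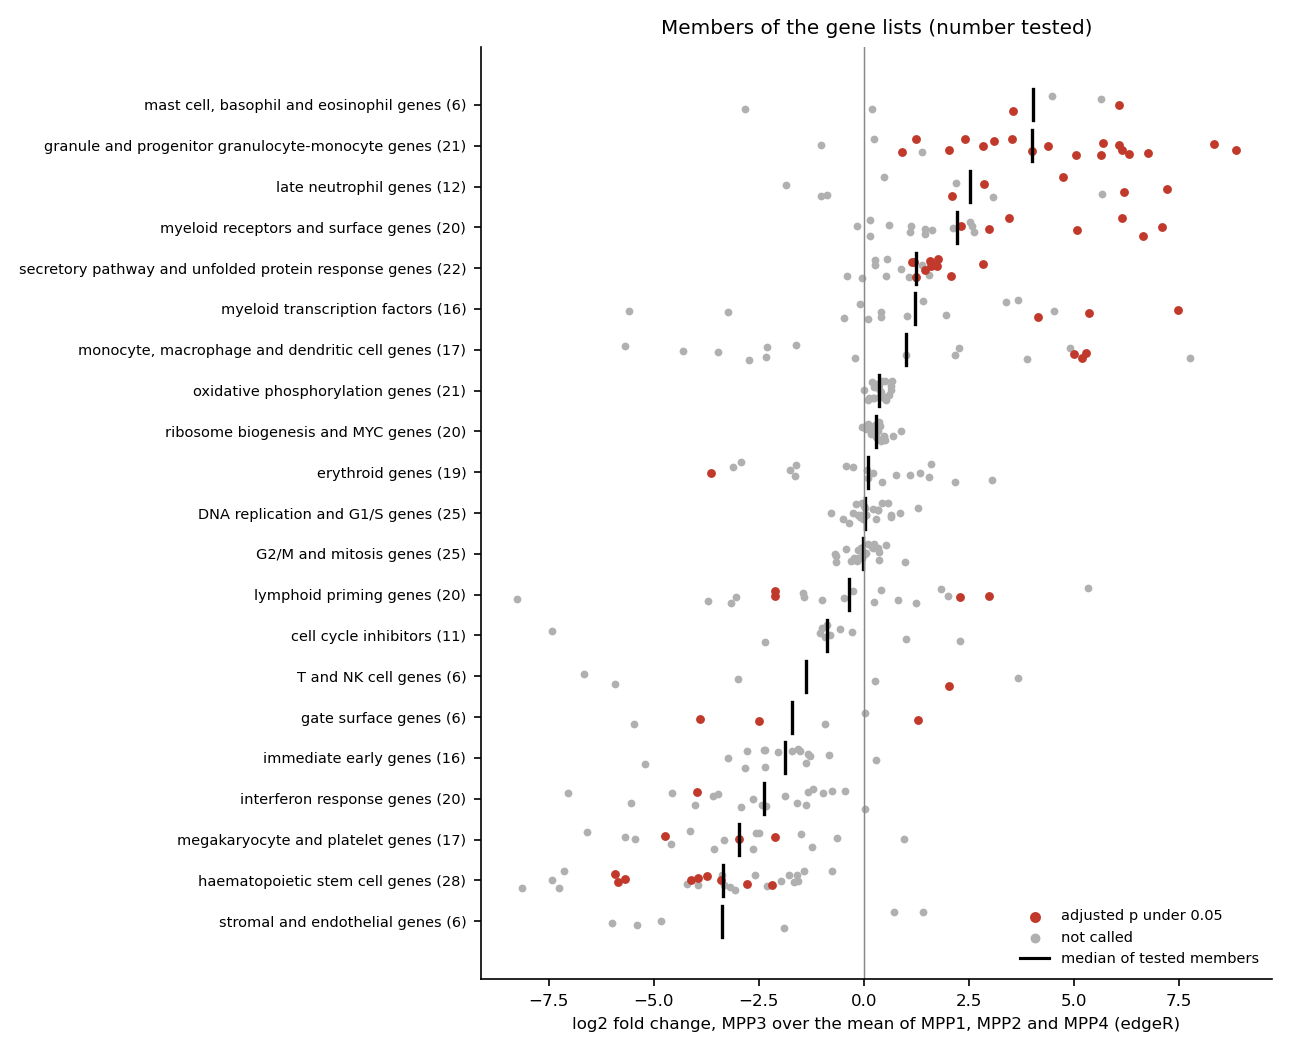
Log2 fold change of MPP3 over the mean of MPP1, MPP2 and MPP4 (x axis, edgeR) for every tested member of the gene lists with more than 1 tested gene (rows, number tested in brackets); red points passed an adjusted p of 0.05, grey did not, and the bar is the median. Granule genes (18 of 21 called higher) and secretory genes (11 of 22) lie mostly right of 0, and stem cell genes (9 of 28 called lower) all lie left of it.

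Among 16 myeloid transcription factors, 3 were called higher and 0 lower (median log2 change 1.21, and 0.73 with floors). These were Cebpa, Irf8 and Cebpe, and without the MPP1 sum of L37 only Irf8 was called. Irf8, which directs monocyte and dendritic cell fate, was at 372 and 244 CPM in MPP3, against 1.18 and 0.668 CPM in MPP1, 1.49, 1.29 and 6.85 CPM in MPP2, and 142, 274 and 5.62 CPM in MPP4. The MPP3 range therefore stood apart from MPP1 and MPP2 (edgeR adjusted p = 0.002 and 0.00215) and overlapped that of MPP4 (log2 change 1.13, SE 0.85, adjusted p = 0.728). Cebpe, a factor of later granulocyte maturation, was at 74.5 and 73.1 CPM in MPP3 and at 0 in 5 of the 8 other sums, with 18.7 CPM as the highest of them (edgeR adjusted p = 0.0123 against the mean of the gates); it lost its call under DESeq2 (0.222). Spi1, the gene of PU.1, was at 278 and 289 CPM in MPP3, against 78.3 and 77.3 CPM in MPP1, 86.2, 96.5 and 24.3 CPM in MPP2, and 256, 277 and 172 CPM in MPP4, and was called only against MPP2 (edgeR adjusted p = 0.0307, against 0.0536 for the mean of the gates). Gfi1, a repressor needed for granulocyte development, was at 44.9 and 21.3 CPM in MPP3 against 0.0471 to 27.9 CPM elsewhere and was not called.

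Of 20 tested myeloid receptor and surface genes, 7 were higher and 0 lower in MPP3 (median log2 change 2.21, and 1.63 with floors). Fcgr3, an Fc receptor for IgG, was at 343 and 464 CPM in MPP3, against 0 and 0.668 CPM in MPP1, 44.8, 2.14 and 21.8 CPM in MPP2, and 1.59, 13.3 and 0.363 CPM in MPP4 (edgeR adjusted p = 0.000114 against the mean of the gates). Ly6c2, a surface antigen gene of monocytes and their progenitors, was at 3139 and 2028 CPM in MPP3, against 0 to 127 CPM in the other sums, and was called against each gate (edgeR adjusted p = 0.00205, 0.0199 and 0.0206). Ly6c1 and Ly6c2 are close copies whose reads the counting may have split, so the values of the pair are less certain than those of single-copy genes. The receptor gene for CSF1, Csf1r, was at 46.9 and 35.7 CPM in MPP3, at 0 in both MPP1 sums, and at 0 to 22 CPM in MPP2 and MPP4 (edgeR adjusted p = 0.0116).

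Tyrobp, a signalling adaptor, and Clec12a, a C-type lectin of myeloid cells, showed the same order of gates: Tyrobp was at 648 and 662 CPM in MPP3, against 11.2 to 62 CPM in MPP1 and MPP2 and 342, 335 and 45.3 CPM in MPP4. Clec12a was at 612 and 701 CPM in MPP3, against 0 to 43.4 CPM in MPP1 and MPP2 and 125, 450.2 and 153 CPM in MPP4. Both were called against MPP1 and MPP2, and neither against MPP4 (edgeR adjusted p = 0.371 for Tyrobp and 0.618 for Clec12a). The receptor gene for G-CSF, Csf3r, was at 80.8 and 66.8 CPM in MPP3, against 10.7 to 73.4 CPM elsewhere, and was called against MPP2 alone (edgeR adjusted p = 0.0425), a call that 8 of 20 alternative settings gave. Fcgr2b lost its call under several settings, and without the MPP3 sum of L39 5 of these 7 receptor genes were called.

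Genes of late neutrophils were partly raised. Of 12 tested, 5 were higher and 0 lower (median log2 change 2.52, and 1.94 with floors), and 4 of 17 in the table, Mmp9, Retnlg, Stfa1 and Stfa2, were at 0 in both MPP3 sums. S100a8, an abundant calcium-binding protein of neutrophils, was at 569 and 83.9 CPM in MPP3, against 3.2 to 66.7 CPM elsewhere (edgeR adjusted p = 0.000212); without the MPP3 sum of L39 its call was lost, and 2 of the 5 were called. S100a8 was uneven between MPP3 cells: the median cell had 86.8 CPM in L39 and 26.2 CPM in L52, and the highest had 9770 and 1011 CPM. The median cell had 59.1 CPM in the MPP4 sum of L53 and 0 to 5.39 CPM in the remaining sums. Of 17 tested monocyte, macrophage and dendritic cell genes, 3 were higher and 0 lower, with a median log2 change of 1.01 but -1.49 as a floored ratio of mean CPM. Their summed level was 482 and 474 CPM in MPP3, against 70.8 to 644 CPM in the other sums. The called genes were Ly86, Ccr2 and Mpeg1, and 1 of them, Ly86, was called without the MPP3 sum of L39 or without the MPP1 sum of L37. Ccr2, the receptor by which monocytes leave the marrow, was at 61.8 and 44.7 CPM in MPP3, against 0 to 2.79 CPM in MPP1 and MPP2 and 20.2, 17.9 and 38.3 CPM in MPP4 (edgeR adjusted p = 0.0093).

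Genes of the secretory pathway were raised in part. Of 22 tested genes of endoplasmic reticulum folding, translocation and stress, 11 were higher and 0 lower (median log2 change 1.24, and 1.18 with floors), with 4 higher than in MPP1, 7 than in MPP2 and 7 than in MPP4. Their summed level was 10679 and 10989.6 CPM in MPP3, against 3883 to 5336 CPM in the other sums. Calr, the gene of the chaperone calreticulin, was at 1801 and 1721 CPM in MPP3, against 429 and 316 CPM in MPP1, 632, 575 and 422 CPM in MPP2, and 399, 379 and 313 CPM in MPP4. Its log2 change by edgeR was 2.24 against MPP1 (SE 0.28, adjusted p = 0.000257), 1.70 against MPP2 (SE 0.24, adjusted p = 0.00106) and 2.28 against MPP4 (SE 0.25, adjusted p = 0.000116). Hspa5, the gene of the chaperone BiP, was at 1125 and 1031 CPM in MPP3, against 206 to 596 CPM elsewhere (log2 change 1.57, SE 0.24, edgeR adjusted p = 0.00106).

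The other called members were the chaperone gene Hsp90b1, the disulphide isomerase genes Pdia3, Pdia4 and Pdia6, the translocation genes Sec61b, Ssr1 and Ssr4, and Manf and Sdf2l1, with log2 changes of 1.14 (Ssr1) to 2.83 (Sdf2l1). For Pdia6 the MPP3 sums had 700.2 and 766 CPM, against 143 to 282 CPM in the others, and the gene was called against each gate. Atf4 and Ddit3, factors induced by stress of this compartment, were not called, and Ddit3 had a log2 change below 0. Without the MPP3 sum of L52, or without library L52 in every gate, 7 of the 11 were called, and without the MPP3 sum of L39 8 were. Over the MPP3 cells that the authors typed tMPP3, Elane and Calr had a Spearman coefficient of -0.02 over 49 cells of L39 and 0.07 over 24 cells of L52. The 3 L39 cells typed tMPP2 were left out of it and were low in both genes, at 695 to 938 CPM of Elane and 308 to 427 CPM of Calr.

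**Figure D3:**
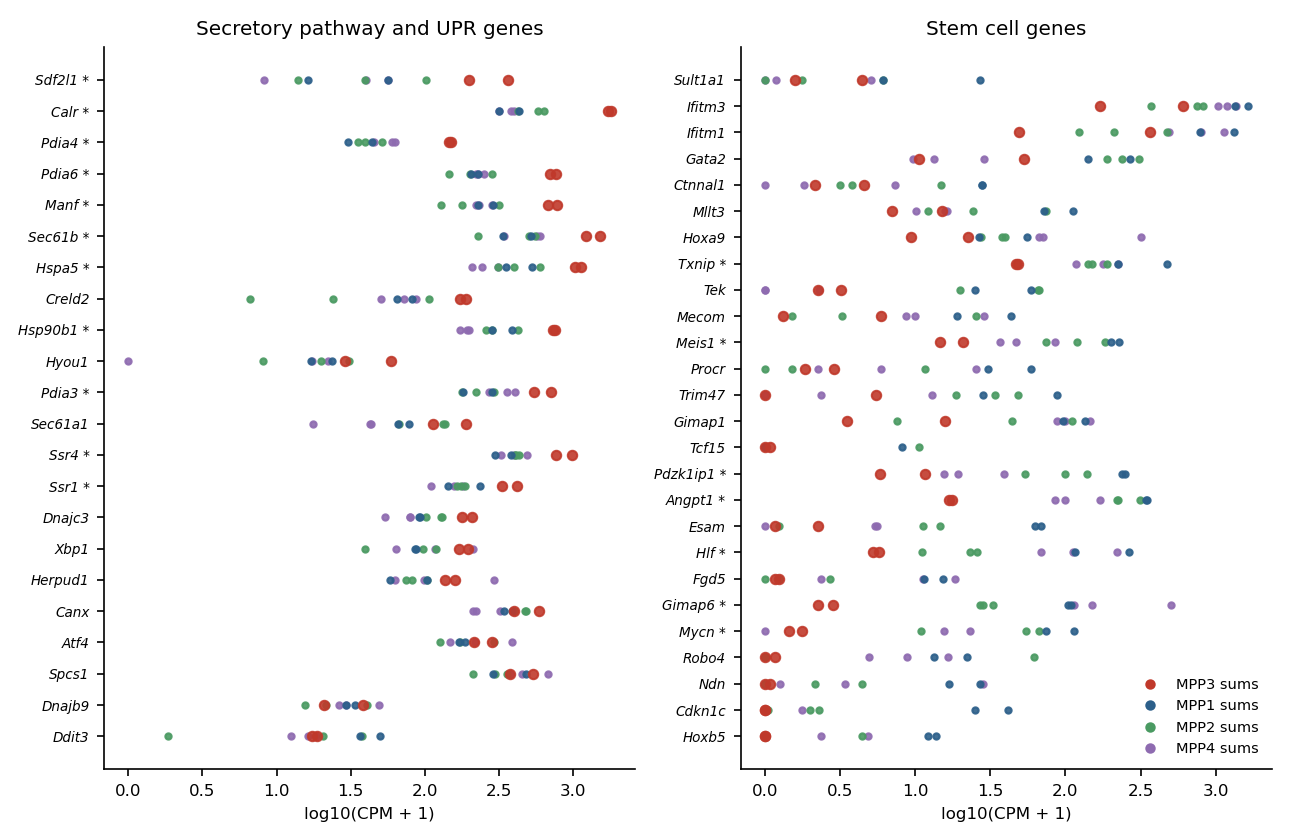
Level as log10(CPM + 1) (x axis) of the 22 tested secretory pathway genes (left) and 26 of the 28 tested stem cell genes (right) in the 10 sums, coloured by gate; an asterisk marks an adjusted p under 0.05 for MPP3 against the mean of the other gates. For 13 of 22 secretory genes both MPP3 points lie right of the 8 other points (5.49% of all genes tested). For 7 of the 26 stem cell genes shown both lie left of them (2.58% of all genes tested).

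Stem cell genes were lower in part in MPP3. Of 28 tested, 0 were higher and 9 lower (median log2 change -3.35, and -3.78 with floors), and 0 of the 28 had a positive change. For 8 of them both MPP3 sums lay below the 8 others, as for 2.58% of all genes tested. Against MPP1 10 were lower (all genes 0.554%), against MPP2 8 (0.422%) and against MPP4 6 (0.554%), where 4 had a positive change. Angpt1, a ligand of the receptor Tek, was at 15.9 and 16.6 CPM in MPP3, against 342 and 347 CPM in MPP1, 220.0, 311 and 222 CPM in MPP2, and 83.7, 168 and 97.9 CPM in MPP4, and was called against each gate (edgeR adjusted p = 3.51e-05, 6.71e-05 and 0.00139). Hlf, a transcription factor of stem cell self-renewal, was at 4.73 and 4.22 CPM in MPP3, against 265 and 114 CPM in MPP1, 25, 22.3 and 10.1 CPM in MPP2, and 67.7, 111 and 218 CPM in MPP4. The gap to MPP2 was the smallest and was not called (log2 change -2.10, SE 0.60, edgeR adjusted p = 0.133).

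Meis1, a cofactor of HOX proteins, was at 13.6 and 19.7 CPM in MPP3, against 35.9 to 228 CPM in the other sums (edgeR adjusted p = 0.00436). Txnip, Pdzk1ip1, Gimap6 and Mycn were also among the called members. Without the MPP3 sum of L39 5 of the 9 were called, and Meis1, Pdzk1ip1 and Mycn were among those that were not. Gimap6, a small GTPase gene also expressed in lymphocytes, was at 1.85 and 1.27 CPM in MPP3, against 102 to 108 CPM in MPP1, 26.2 to 32.0 CPM in MPP2 and 114, 148 and 504 CPM in MPP4; the highest of these is the L53 sum, which shared its library with T cells.

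Genes of the megakaryocyte and platelet lineage were lower in part, and few erythroid genes were called. Of 17 megakaryocyte and platelet genes, 3 were lower and 0 higher than the mean of the gates (Plek, Lat and Mef2c), 7 were lower than in MPP1 and 7 than in MPP2, and 2 than in MPP4. Itga2b, the integrin CD41, was at 6.25 and 14.1 CPM in MPP3, against 157 and 237 CPM in MPP1, 369, 319 and 137 CPM in MPP2, and 9.26, 3.33 and 0 CPM in MPP4. It was called against MPP1 and MPP2 (edgeR adjusted p = 0.029 and 0.0161). Of 19 erythroid genes, 1 was lower, the urea transporter gene Slc14a1 (9.33 and 7 CPM in MPP3, against 10.3 to 321 CPM elsewhere, edgeR adjusted p = 0.000577), with a median log2 change of 0.10 but -1.08 as a floored ratio of mean CPM. Klf1, the master erythroid factor, was at 59.9 and 21.9 CPM in MPP3, against 43.4 and 21.5 CPM in MPP1, 108, 90.9 and 159 CPM in MPP2, and 0.719, 2.82 and 0.181 CPM in MPP4, and was called higher against MPP4 alone (edgeR adjusted p = 0.00419). Few MPP3 cells were high: the median cell had 2.06 CPM in L39 and 3.73 CPM in L52, and 3 cells of L39 that were typed tMPP2 had 472 to 597 CPM, against a median of 1.90 CPM in the 49 others. In MPP2 the median cell had 17.4, 3.66 and 28.8 CPM.

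Lymphoid priming genes went different ways against different gates. Of 20 tested, 4 were higher and 1 lower than in MPP1 (median log2 change 0.63), 1 was higher and 1 lower than in MPP2 (0.24), and 0 were higher and 4 lower than in MPP4 (-2.17): Dntt, Lsp1, Mef2c and Wfdc17. Dntt, the terminal transferase of lymphoid progenitors, was at 0.411 and 9.54 CPM in MPP3, against 0 and 0.801 CPM in MPP1, 0, 0.857 and 12.4 CPM in MPP2, and 673, 511 and 1259 CPM in MPP4 (log2 change against MPP4 -7.40, SE 1.59, edgeR adjusted p = 0.0345). MPP3 and MPP2 sums of L52 were the highest outside MPP4, and L52 also held MPP4 cells. Against the mean of the gates 2 of 20 were higher (Cnn3 among them) and 2 lower (Lsp1 and Mef2c). Il7r, Rag1, Ebf1, Pax5, Blnk, Tcf7 and Il12rb1 were at 0 in both MPP3 sums.

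Transcripts of 6 surface proteins commonly used to define such gates are given as levels, without a test, since the gates may rest on them. Flt3 was at 1.89 and 9.79 CPM in MPP3, against 5.46 and 6.41 CPM in MPP1, 9.95, 35.2 and 14.5 CPM in MPP2, and 182, 352 and 378 CPM in MPP4. Ly6a, the gene of Sca-1, was at 4.07 and 6.67 CPM in MPP3, against 192 and 91.0 CPM in MPP1, 30.5, 11.6 and 3.55 CPM in MPP2, and 122, 162 and 412 CPM in MPP4. Cd48 was at 183 and 239 CPM in MPP3, against 14.2 and 19.1 CPM in MPP1, 124, 164 and 79.6 CPM in MPP2, and 385, 385 and 169.7 CPM in MPP4. Slamf1, the gene of CD150, had 2 counts in the MPP3 sums together. Kit was at 112 and 114 CPM in MPP3 and 130.0 to 279 CPM in the other sums, and Cd34 at 153 and 257 CPM in MPP3 and 73 to 590.2 CPM in the other sums.

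Cell cycle and growth genes gave no edgeR calls. Of 25 DNA replication genes and 25 mitosis genes 0 were called either way against the mean of the gates (median log2 change 0.03 and -0.02), as were 0 of 20 ribosome biogenesis and MYC genes (0.29), 0 of 21 oxidative phosphorylation genes (0.36) and 0 of 11 cell cycle inhibitors (-0.89). At an unadjusted p under 0.05 edgeR counted 1 of 25 DNA replication, 0 of 25 mitosis, 0 of 20 ribosome biogenesis, 8 of 21 oxidative phosphorylation and 3 of 11 inhibitor genes. The change was positive for 21 of 21 oxidative phosphorylation and 19 of 20 ribosome biogenesis genes. The summed level of the inhibitors was 149 and 216 CPM in MPP3, below the 228 to 768 CPM of the other sums. Mitosis genes had a positive change in 25 of 25 against MPP1 and in 2 of 25 against MPP4, with 7 at an unadjusted p under 0.05 in each and 0 called. DESeq2 called 2 inhibitors lower and 0 members of the other 4 lists, and voom with the library as a block called 1 replication and 7 oxidative phosphorylation genes higher and 1 inhibitor lower. Of 16 immediate early genes 0 were called by edgeR (median -1.88, 9 at an unadjusted p under 0.05) and 5 were lower with DESeq2, and Fos was higher in each sum of L51 to L53 than in any sum of L37 to L40, at 49.8 CPM in the MPP3 sum of L39 and 55.9 to 123 CPM in the other sums of L37 to L40, and at 376 CPM in the MPP3 sum of L52 and 357 to 1272 CPM in the other sums of L51 to L53. Of 20 interferon response genes 1, Rtp4, was called lower against the mean of the gates (median log2 change -2.38, 10 at an unadjusted p under 0.05, 1 of 20 positive), and 2 against MPP4. Their summed level was 223 and 226 CPM in MPP3, below the 351 to 2266 CPM of the other sums.

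Markers of other cell types were checked in the gate. Of 15 T and NK cell genes 10 were at 0 in both MPP3 sums, Cd3e, Cd8a, Gzma and Ncr1 among them, and their summed level of 1268 and 1413 CPM, against 114 to 648 CPM in the other sums, was almost all Nkg7 (1268 and 1407 CPM), which is also on the granule list. Of 8 B cell genes 6 were at 0, and of 10 stromal and endothelial genes 6 were. Of 14 mast cell, basophil and eosinophil genes 8 were at 0, and of the 6 tested 2 were higher, Hdc (histidine decarboxylase) and Cpa3 (a mast cell protease). Cpa3 was at 45.4 and 290.1 CPM in MPP3, against 0.181 to 54.4 CPM elsewhere (edgeR adjusted p = 0.0125), and was uneven between cells: the median cell had 4.16 CPM in L39 and 13.2 CPM in L52, and the highest had 761 and 4268 CPM.

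The 10 genes with the largest rise against the mean of the gates, other than genes left out by rule, were Gpr141, Clec4a2, Fcnb, Clec5a, Chdh, Cldn15, Gpx3, Chst13, Mcemp1 and Xdh. Fcnb (a ficolin), Clec4a2 and Clec5a (lectin receptors) are known from myeloid cells. Gpr141, an orphan receptor gene, had 552 counts in the MPP3 sums and 1 count in the 8 other sums, a ratio of 1357 (95% interval 243 to 53705, counting error alone). Cldn15, a tight junction gene, was at 85.5 and 74.8 CPM in MPP3, at 0 in both MPP1 sums and at 0 to 13.5 CPM in MPP2 and MPP4 (edgeR adjusted p = 0.002). The 10 with the largest fall included F11r, F2rl2, Cish, Tbxa2r, Cd96, Tnip3, Ifi44, Mycn and Gimap6. F11r, an adhesion molecule of the junctional family, had 0 counts in MPP3 and 1.45 to 44.5 CPM in the other sums, so that it was at least 173-fold lower in MPP3 (3 counts over both MPP3 sums, counting error alone). Gpr141 passed the filter on low counts through the MPP3 sums alone, and F11r through the other gates alone. Both were picked for the size of their change, so these ratios describe the counts that picked them and carry no test.

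Single cells showed how evenly the gate carried these genes. In L39 Elane ranged from 695 to 29792 CPM with a median of 15003 CPM, and in L52 from 505 to 15210.5 CPM with a median of 7410.0 CPM. The median cell of the 8 other sums had 0 to 615 CPM. Of the 156 cells of L37, L38 and L40 3 reached the lower quartile of L39 for Elane (9454 CPM), 2 in MPP2 and 1 in MPP4, and of the 66 other cells of L51 to L53 0 reached the lower quartile of L52 (6059 CPM). In the MPP2 sum of L38 the median cell had 127 CPM of Elane, the highest 14949 CPM and the sum 1138 CPM. For Calr, the chaperone gene, 2 of 156 and 0 of 66 cells reached the lower quartile of MPP3, and for Cebpa 10 of 156 and 11 of 66 did.

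**Figure D4:**
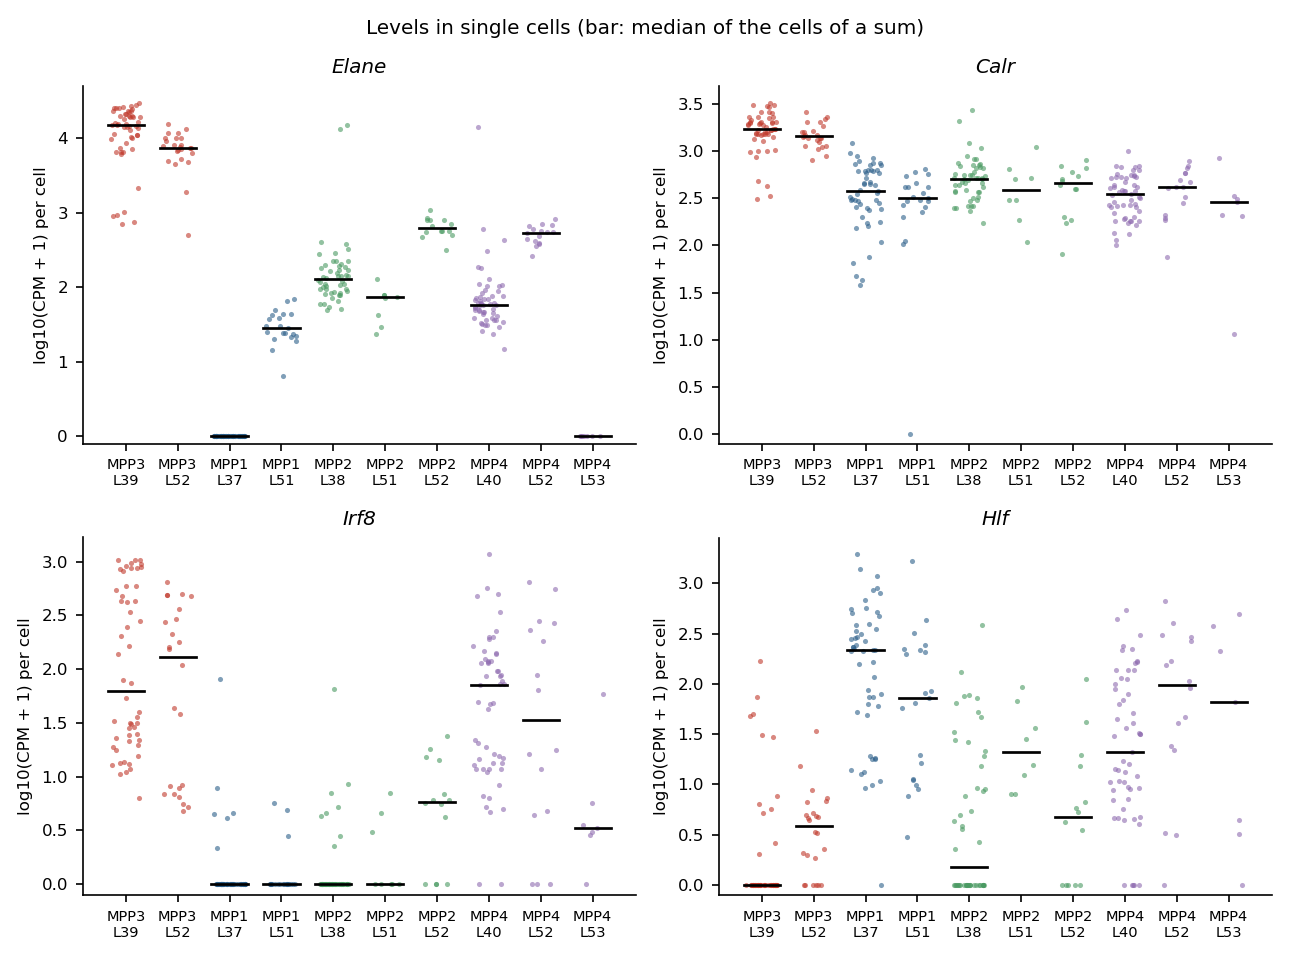
Level of 4 genes in single cells as log10(CPM + 1), by gate and library; points are cells and bars medians. Elane and Calr are high in nearly all MPP3 cells, Irf8 spans about the whole range within MPP3 and MPP4, and Hlf is near 0 in most MPP3 cells; the level of Elane shared by all MPP2 and MPP4 cells of L52 (258 CPM or more) is visible.

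The authors' predicted types were nearly uniform in the gate. In L39 49 of 52 MPP3 cells were typed tMPP3 (94.2%, 95% exact interval 84.1 to 98.8%) and 3 tMPP2, and in L52 24 of 24 were typed tMPP3 (interval 85.8 to 100%). The mean share of tMPP3 was 97.1% ± 4.08 (SD, n = 2 sums) in MPP3, against 3.2% ± 4.97 (SD, n = 8 sums) in the other gates, where it was 0 in 5 sums. The difference of 93.9 points had an exact permutation p of 0.0222, two-sided, the smallest that 45 regroupings can give, and 0.111 after adjustment over 5 types. The types rest on expression, so they do not stand apart from the levels above. In the 3 cells typed tMPP2 the erythroid genes Car1 (781 to 6643 CPM), Klf1 (472 to 597 CPM) and Gata1 (197 to 245 CPM) were high, against medians of 38.4, 1.90 and 2.14 CPM in the 49 others, while Elane was at 695 to 938 CPM, with a median that was 4.77% of the median of those cells.

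Detection of the markers was compared after each cell was thinned to 20000 counts. Mpo, Ctsg and Elane were then detected in 100% of MPP3 cells of both libraries, against 79.9% ± 34.6, 54.5% ± 40.7 and 61.1% ± 41.8 of cells in the other gates (SD, n = 8 sums), and Cebpa in 55.8% ± 8.16 (SD, n = 2 sums) of MPP3 cells, against 11.3% ± 10.6. The exact permutation p, adjusted over 4 markers, was 0.422 for Mpo, 0.326 for Ctsg and Elane and 0.0889 for Cebpa, where 0.0222 unadjusted is the smallest this design allows. Unthinned, these genes were also found in 58.1% (Mpo), 38.9% (Ctsg), 30.5% (Elane) and 12.6% (Cebpa) of 167 sorted T, B and NK cells, which should lack them, at a median of 113108 counts per cell, against 476042.5 in MPP3. Thinned to 20000 counts the same shares were 22.2%, 20.4%, 9.58% and 1.80%. These lymphocyte libraries differed, as Elane was at 0 in the sums of L53 and L54 and at 4.82 to 27.9 CPM in those of L2 and L3. The 3 MPP3 cells of L39 typed tMPP2 had 695 to 938 CPM of Elane, within the 316 to 1095 CPM of the MPP2 cells of L52. The part of shared counts in the shares of MPP3 and of the other gates was not tested.

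Within the gate the myeloid genes did not all follow each other. Over the 49 L39 cells typed tMPP3 and the 24 L52 cells, Elane ranked with Mpo (Spearman 0.77 and 0.60), Ctsg (0.76 and 0.69) and Prtn3 (0.76 and 0.49), all from the same libraries and depths. The partners of Irf8 given here are among the highest and lowest of the list members screened and were chosen after their values were seen. Irf8 spanned 5.40 to 1043 CPM in L39 and 3.83 to 643 CPM in L52, and did not rank with Elane (-0.25 and -0.02). It ranked with F13a1 (0.79 and 0.63), a coagulation factor subunit gene of monocytes, with Ly86 (0.78 and 0.40), Fcer1g (0.72 and 0.48), Csf1r (0.68 and 0.39) and Ccr2 (0.67 and 0.46). It ran against Cd63 (-0.66 and -0.82), a granule membrane gene, Hdc (-0.57 and -0.57), Cebpe (-0.59 and -0.37) and Ms4a3 (-0.51 and -0.22). Other list members did not follow Irf8, among them the macrophage gene C1qa (-0.22 and -0.25), the antigen presentation gene H2-Ab1 (-0.06 and -0.13), Cx3cr1 (0.17 and 0.21) and Cd68 (0.02 and 0.37). The granule genes differed too: Mpo (-0.39 and 0.10) and Prtn3 (-0.24 and 0.25) changed sign between libraries, and Lyz2 was positive in both (0.50 and 0.27). These coefficients describe the cells of 2 libraries and carry no test; F13a1 and Ly86 also ranked with the total count of a cell in L39 (0.45 and 0.51), and Mpo ran against it in L52 (-0.61).

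**Figure D5:**
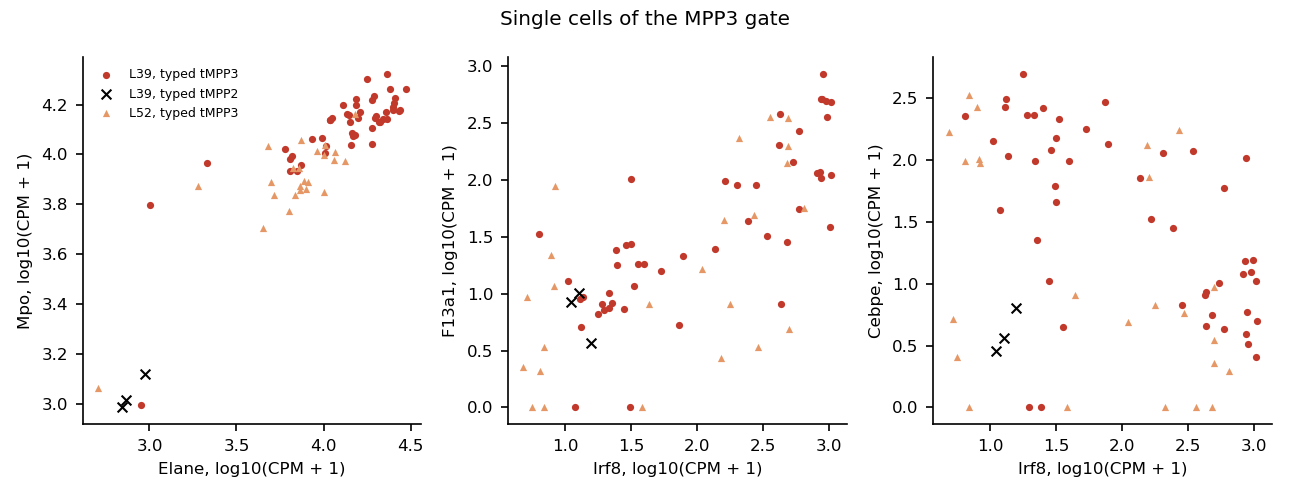
Levels in the 76 MPP3 cells as log10(CPM + 1): Mpo against Elane, F13a1 against Irf8 and Cebpe against Irf8, with libraries by colour and shape and the 3 cells typed tMPP2 as crosses. Elane and Mpo rise together, Irf8 spreads over 5.40 to 1043 CPM in L39 with F13a1 high at its upper end, and Cebpe is mostly high where Irf8 is low.

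Set among all 28 steady state populations, with plain CPM per library sum, MPP3 had the highest mean level of Mpo (7615 to 11725 CPM over its 2 sums), Elane (7267 to 13264 CPM) and Ctsg (4880.0 to 5730.3 CPM). The next was the granulocyte-monocyte progenitor gate GMP, with 1 sum of 24 cells at 9116 CPM of Mpo, 7324 CPM of Elane and 3563 CPM of Ctsg, of which the Mpo and Elane values lay within the range of the MPP3 sums. Cebpa was at 43.7 to 68.1 CPM over the MPP3 sums, and the GMP sum, at 61.9 CPM, lay within that range and above the MPP3 mean of 55.9 CPM. HPC3 was the third for the 3 granule genes, with 682 to 7091 CPM of Mpo over 3 sums. The order of MPP3 and GMP rests on 1 GMP library and was not tested.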

How the data were processed

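The deposited table gave whole-number counts per gene and cell, not normalized by the authors, and the deposited annotation gave each cell's origin, gate and predicted type (other data, as text). Per the submitters' processing notes, which list no versions, the tools included TopHat and HTSeq and the build was mm10; the sources used here do not say if the counts are reads or molecules, so intervals and floors cover counting error alone. The 578 cells without annotation were left out, no other cell filter was applied, no doublet caller was run on these sorted cells, no mitochondrial gene was in the table and 0 pairs of cells had identical counts. MPP3 members and all gene lists were chosen with earlier results of these data known.

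Counts were summed per gate and library (at least 5 cells, 10 sums). edgeR 4.0.16 (R 4.3.3; filterByExpr, TMM, quasi-likelihood F tests, 12085 genes, biological coefficient of variation 0.849, 6 residual degrees of freedom) fitted the 4 gates together, and Benjamini-Hochberg adjusted p under 0.05 was called. The step was also run on simulated counts, drawn for each sum on its own from 1 mean per gene, with changes added in MPP3. These hold no library shared between sums, so they cannot check the p-values for that. Named were the 4 markers, the 10 called genes with the largest log2 change each way (detected in both MPP3 sums, or in at least 6 other sums), list members called in any of the 4 comparisons, 2 to 4 members with the smallest p of other lists, and all surface genes; predicted, mitochondrial, ribosomal protein, Xist and Y-linked transcripts were left out, save as library facts. Lyz2, Ctsc, Gfi1, Atf4, Ddit3, Fos and the genes given only for single cells were named after their values were seen. Alternatives were other scaling, filters, DESeq2 1.42.0, limma 3.58.1 (voom with the library as replicate block, or mean log values), a tissue term, other fits and leaving out sums. Shares were compared by exact permutation over sums (python 3.11.15, scipy 1.17.1). Gene positions came from GENCODE M21. Some genes that met the rule are not reported here by name.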

Additional observations from a re-analysis of the deposited data

How the results depend on the processing

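The numbers of genes called against the mean of the gates, MPP1, MPP2 and MPP4 were 447, 352, 375 and 372 with no filter on low counts, 529, 498, 451 and 457 with DESeq2, 428, 472, 294 and 197 with at least 10 cells per sum, and 391, 421, 389 and 298 with limma on mean log values. With the library as a replicate block in voom they were 804, 864, 371 and 520. With all steady state MPP gates in the fit 81 were called against MPP2. Leaving out 1 sum at a time gave 111 to 292, 80 to 256, 72 to 232 and 42 to 148. The lowest counts came without the MPP3 sum of L39 (mean of the gates, MPP4), the MPP1 sum of L37 (MPP1) and the MPP2 sum of L52 (MPP2), and without library L52, chosen after seeing the data, 180 were called against MPP4. Of 4433 values of 222 called gene results under 20 alternatives, 3848 kept direction and call, 585 kept direction alone and 0 reversed. At 3 or more counts per cell the difference in detection was 11.52 points for Cebpa and 64.57 for Ctsg, both with an exact permutation p of 0.0444 after adjustment. The cause of these shifts was not tested. MPP3 had 2 sums, 1 in each set of libraries, and the sets differ in tissue label and in sex-linked transcripts, so effects of these cannot be told apart from each other.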

Other observations

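The genes called against each of MPP1, MPP2 and MPP4, looked up after the values were seen, were 12 higher and 20 lower genes by edgeR. The higher genes were Alas1, Calr, Gstm1, Lta4h, Ly6c1, Ly6c2, P4hb, Pdia6, Pgam1, Prtn3, Rgcc and Trem3. Calr, P4hb and Pdia6 encode folding proteins of the endoplasmic reticulum, Prtn3 a granule protease, and Lta4h an enzyme of leukotriene synthesis. Among the 20 lower genes were the stem cell genes Angpt1, Txnip and Gimap6, the platelet and T cell adaptor gene Lat, the thrombin receptor gene F2r and the adhesion gene F11r.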
